A study of Mus musculus with 8 samples.

Results

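The Nodal/Activin pathway was followed in mouse pluripotent stem cells through 9 genes, Nodal, Gdf3, Tdgf1, Lefty1, Lefty2, Cer1, Acvr1b, Acvr2b and Foxh1, out of the 37620 genes in the count tables. They were chosen by name, and their Ensembl identifiers were matched through the GENCODE symbols of the NCBIM37 mouse genome. Gene counts were available for 8 libraries of poly-A RNA in 5 groups. In R1, a mouse embryonic stem cell (mESC) line, 1 library came from 2i on day 5, 1 from 2iJ on day 5 and 3 from 2iJ+B-A on days 2, 5 and 11. One library was made from Cdx2-GFP-positive cells sorted on day 2 of 2iJ+B-A from a reporter line, CDX2-GFP, and 2 came from R1 mesoderm progenitors on days 3 and 4. 2i is CHIR99021 at 3 µM, which inhibits GSK3, with PD0325901 at 1 µM, which inhibits MEK. 2iJ adds a JAK inhibitor at 2.0 µM, and 2iJ+B-A further adds BMP4 at 10 ng/ml and ALK5 inhibitor II at 10 µM. All mESC cultures shared 2i. The methods of the study describe R1 culture with serum and without feeder cells, and give no separate account for CDX2-GFP. The design text of the series gives a culture time of 2 days, while the labels give the days used here. The mesoderm progenitors were grown as embryoid bodies in a medium for which no serum is listed, and from re-aggregation on they received BMP4, Activin A and Wnt3a. The day 4 library had also received IWP-2, which blocks Wnt secretion, so its day and its treatment cannot be told apart.

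Nodal and the Activins are ligands of the TGF-beta family. They bring together a type II receptor, such as the product of Acvr2b, and the type I receptor kinase ALK4, the product of Acvr1b. Nodal, unlike Activin, also needs the co-receptor Cripto, the product of Tdgf1. The receptors phosphorylate SMAD2 and SMAD3, which enter the nucleus with SMAD4 and bind DNA with partners such as FOXH1. Among the genes they switch on are Nodal itself and its secreted inhibitors Lefty1 and Lefty2, which close a positive and a negative feedback loop. In the embryo the pathway patterns the epiblast and drives formation of mesoderm and endoderm at the primitive streak. The study used the ALK5 inhibitor against the type I receptors of Activin and Nodal as well, so 2iJ+B-A both blocks this pathway and supplies BMP4, and the 2 additions cannot be told apart in these libraries.

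The sequences just before the start sites of Nodal and Tdgf1 are shown because the transcripts of this ligand and of its co-receptor took different courses in 2iJ+B-A. They were taken from the RefSeq promoter table (GRCm38.p6), which held 5 of the 9 members, Nodal, Tdgf1, Cer1, Acvr1b and Acvr2b, and had no entry for Lefty1, Lefty2, Gdf3 and Foxh1. Each runs 5′ to 3′ over 250 bases on the strand of its gene, at chr10:61417722-61417971 on the plus strand and at chr9:110946159-110946408 on the minus strand, and ends at the base before the start. Capitals mark the SMAD motif CAGAC on either strand.
Nodal: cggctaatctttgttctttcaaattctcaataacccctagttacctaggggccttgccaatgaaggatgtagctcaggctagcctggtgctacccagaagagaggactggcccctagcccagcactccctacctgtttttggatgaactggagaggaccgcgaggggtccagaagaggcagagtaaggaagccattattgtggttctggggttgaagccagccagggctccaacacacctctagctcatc
Tdgf1: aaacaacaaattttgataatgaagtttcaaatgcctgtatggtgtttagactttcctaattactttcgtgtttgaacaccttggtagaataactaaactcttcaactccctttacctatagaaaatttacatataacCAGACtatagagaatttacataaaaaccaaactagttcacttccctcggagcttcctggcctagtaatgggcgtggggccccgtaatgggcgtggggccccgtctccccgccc
The motif occurred 1 time before Tdgf1, beginning 113 bases before the start, and was not found before Nodal. It was present in 42.2% of 32851 mouse promoters of this length. The FOXH1 motif AATNCACA, found in 3.18% of these promoters, and the SMAD palindrome GTCTAGAC, found in 0.167%, were in neither sequence. A match is only a description of the letters in this window.

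Total gene counts on the reverse strand were between 19810855 and 31453888, and 3 counts, taken as the lower limit of detection, corresponded to between 0.095 and 0.151 counts per 1000000 (CPM). The sorted library was the shallowest and stood apart, with 29.7% of read pairs unmapped against at most 3.85% in the other libraries. Pluripotency markers summed to between 3441 and 4070 CPM in 2i and 2iJ, between 2846 and 3367 CPM in 2iJ+B-A and 2010 CPM in the sorted cells. In the mesoderm progenitors they summed to between 83.9 and 900.2 CPM, where nascent mesoderm markers reached between 321.4 and 1035 CPM. Trophectoderm markers summed to between 25.3 and 49.6 CPM in 2i and 2iJ, between 427.4 and 1214 CPM in 2iJ+B-A and 3702 CPM in the sorted cells. The mesoderm progenitors, at between 614.5 and 854.1 CPM, lay within the range of 2iJ+B-A, so this sum does not set the lineages apart. Of the sum in the sorted cells, Krt8 gave 1731 CPM and Krt18 1595 CPM. In bulk RNA, a smaller share of cells that express a gene and less RNA per cell cannot be told apart.

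In 2i and 2iJ transcripts of every member but Cer1 were abundant enough to test. Compared per length, in 2iJ, Tdgf1 was the most abundant member at 232.7 CPM per kilobase. Lefty2 followed at 121.1 and Lefty1 at 107.5 CPM per kilobase, so the inhibitors exceeded their ligand Nodal at 50.3 CPM per kilobase. Gdf3, which encodes a TGF-beta family ligand related to Nodal, and Foxh1 came next and were nearly level, at 33.8 and 33.1 CPM per kilobase. The receptors Acvr1b and Acvr2b were lower, at 9.57 and 7.97 CPM per kilobase. The order in 2i was the same for all 9 members. There was 1 library of each culture, and differences between neighbours in the order were not tested.

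**Figure D1:**
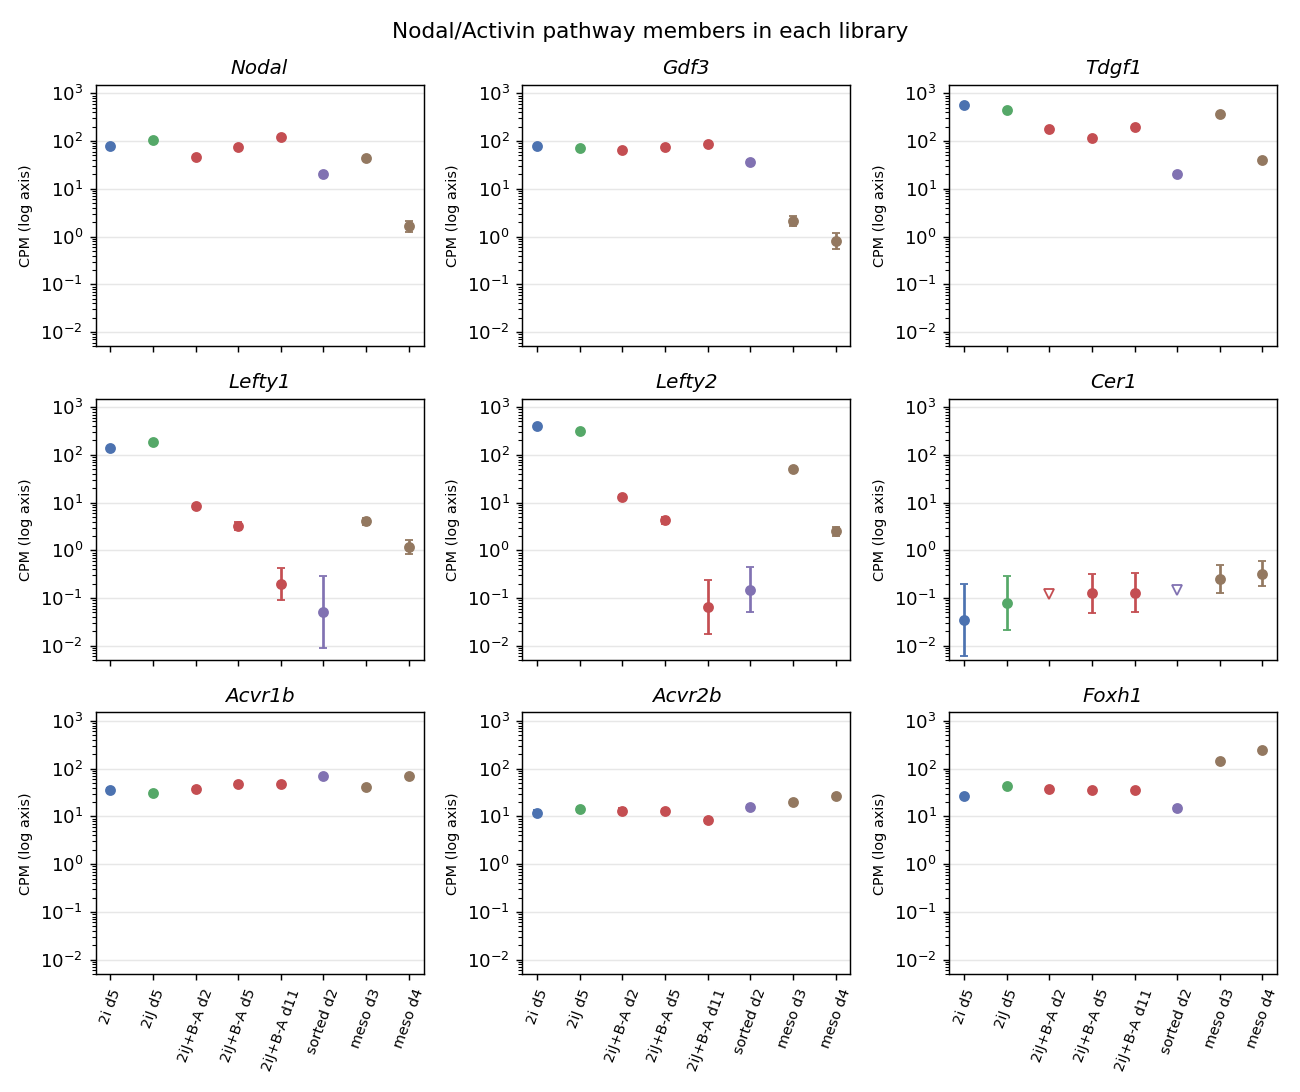
The level of each member in every library is plotted in CPM on a log axis, with 95% Wilson intervals that cover counting error only; open triangles mark the 3-count limit where the count was 0. Lefty1 and Lefty2 lie above 140 CPM in 2i and 2iJ and below 14 CPM in all 3 libraries of 2iJ+B-A, while Nodal and Gdf3 stay above 45 CPM in those libraries.

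The largest differences between 2iJ+B-A and 2iJ within the pathway were at the 2 Lefty genes, secreted antagonists that bind Nodal and its co-receptors. Lefty1 (ENSMUSG00000038793, chr1:182865153-182868531, plus strand) was at 141.2 CPM in 2i and 188.9 CPM in 2iJ. Days 2, 5 and 11 of 2iJ+B-A gave 8.36, 3.31 and 0.195 CPM, the last from 6 counts. The 3 days lay below both reference cultures with no overlap, and each later day lay below the one before. Lefty2 (ENSMUSG00000066652, chr1:182823239-182829234, plus strand), its neighbour on the chromosome, was at 399.9 CPM in 2i and 316.1 CPM in 2iJ. Its level in 2iJ+B-A was 13.1, 4.26 and 0.0651 CPM over the same days, the last from 2 counts and below the limit of detection. The courses of the 2 genes ran in parallel. Against 2iJ, Lefty1 was 22.6-fold lower on day 2 and 57.1-fold lower on day 5, and Lefty2 24.2-fold and 74.2-fold lower. On day 11 the ratio to 2iJ was 0.00103 for Lefty1 (95% exact interval 0.000379 to 0.00225) and 0.000206 for Lefty2 (2.49e-05 to 0.000744), counting error only.

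The pair share some sequence. Of the 126-base windows along their transcripts, 1.003% of those of Lefty1 and 0.639% of those of Lefty2 were common to both, and of the 50-base windows 17.9% and 11.6%. The third secreted inhibitor, Cer1, which binds Nodal, BMP and Wnt ligands, had between 0 and 10 counts in each library and at most 0.323 CPM, so no difference in it was detectable at this depth. It was the only member that did not pass the filter on low counts.

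Tdgf1, the Cripto co-receptor (ENSMUSG00000032494, chr9:110842114-110848662, minus strand), was at 564.9 CPM in 2i and 448.0 CPM in 2iJ, against 180.3, 118.2 and 193.1 CPM on days 2, 5 and 11 of 2iJ+B-A. These values did not overlap either, and unlike the Lefty genes Tdgf1 was no lower on day 11 than on day 2. The ligand itself took another course. Nodal (ENSMUSG00000037171, chr10:60880720-60888086, plus strand) was at 77.7 CPM in 2i and 105.3 CPM in 2iJ, and at 45.4, 75.6 and 122.7 CPM on days 2, 5 and 11 of 2iJ+B-A. Day 2 was thus the lowest and day 11 the highest of the 5 unsorted mESC libraries, and the groups overlapped. Gdf3 (ENSMUSG00000030117, chr6:122555421-122560105, minus strand) was at 77.4 CPM in 2i, 71.8 CPM in 2iJ and between 66.3 and 88.1 CPM in 2iJ+B-A, so its groups overlapped too.

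The receptors and the nuclear partner showed small differences. Acvr1b, which encodes the ALK4 kinase (ENSMUSG00000000532, chr15:101004556-101043032, plus strand), was at 36.5 CPM in 2i and 31.4 CPM in 2iJ and at 38.3, 48.8 and 46.8 CPM on days 2, 5 and 11, so that 2iJ+B-A lay just above both. Acvr2b (ENSMUSG00000061393, chr9:119311562-119342619, plus strand) was between 8.33 and 13.2 CPM in 2iJ+B-A, against 11.97 and 13.97 CPM in 2i and 2iJ. Foxh1 (ENSMUSG00000033837, chr15:76498714-76500378, minus strand) was at 35.8 ± 0.746 CPM in 2iJ+B-A (SD, n = 3), between its 26.8 CPM in 2i and its 43.2 CPM in 2iJ.

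In the fit of the 6 mESC libraries with edgeR, none of the 8 members tested differed between 2iJ+B-A and 2iJ at an adjusted p under 0.05, and neither did any of the 16459 genes tested (0%). At an unadjusted p under 0.05 there were 3 members and 1792 genes. The 3 members were Tdgf1, with a log2 fold change of -1.51 ± 0.293 (SE) and an adjusted p of 0.182, Lefty1, with -5.66 ± 1.16 and 0.195, and Lefty2, with -5.84 ± 1.35 and 0.233 (edgeR). The single 2iJ library and the change of the Lefty genes over the days both enter these errors. The other 5 members had log2 fold changes between -0.44 for Nodal and 0.44 for Acvr1b, with adjusted p-values between 0.546 and 0.983. With 2i and 2iJ taken as 1 reference of 2 libraries, 5.08% of genes passed (2.51% lower, 2.57% higher), and the same 3 members were among them, all lower. In that fit the log2 fold change was -5.48 ± 0.959 for Lefty1 (adjusted p = 0.0285, edgeR), -6.04 ± 1.13 for Lefty2 (adjusted p = 0.0336) and -1.70 ± 0.236 for Tdgf1 (adjusted p = 0.0166). Leaving out day 5 there left only Tdgf1 past the threshold. Against 2iJ alone, these members passed in some fits with fewer libraries or other settings: Lefty1 and Lefty2 without day 2 (2.55% of genes passed) and without day 11 (0.892%), Tdgf1 with DESeq2 (3.26%), and all 3 without the filter on low counts (0.71%). No member passed against 2iJ without day 5, without the sorted library or with all 8 libraries. The same held with DESeq2 size factors in edgeR, a filter of 50 counts or unstranded counts. The count of 3 members whose 2iJ+B-A values all lay below 2i and 2iJ compares with 17.2% of all genes, and the count of 1 that lay above, Acvr1b, with 26.7%.

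**Figure D2:**
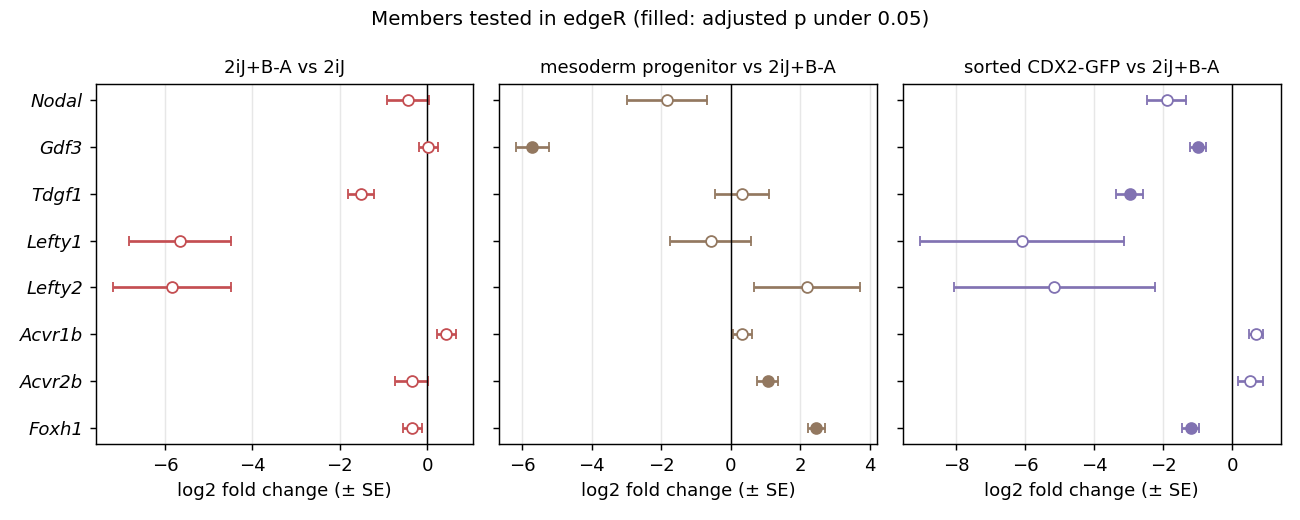
Log2 fold changes of the 8 tested members from edgeR are shown with bars of 1 SE for 2iJ+B-A against 2iJ, mesoderm progenitors against 2iJ+B-A and sorted cells against 2iJ+B-A; filled points passed an adjusted p of 0.05. No point is filled in the first panel, where Lefty1 and Lefty2 lie at -5.66 and -5.84, and 3 points are filled in each of the others.

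Over the days of 2iJ+B-A the members diverged. The slope on log2 day, which is the log2 change for each doubling of time, was -1.90 ± 0.527 for Lefty1 and -2.25 ± 1.02 for Lefty2 in the fit of all 8 libraries, and 0.57 ± 0.718 for Nodal. None passed there (adjusted p of 0.827, 0.858 and 0.926, edgeR), nor did any of 16961 genes (0%), with 1004 genes and 1 member, Lefty1, at an unadjusted p under 0.05. The error in that fit includes the step between the 2 mesoderm libraries. In the fit of the 6 mESC libraries alone, 3.23% of genes passed, 0.96% with a falling and 2.27% with a rising slope. Lefty1 fell by 1.73 ± 0.241 (adjusted p = 0.00626, edgeR), Lefty2 fell by 2.01 ± 0.284 (adjusted p = 0.00651) and Nodal rose by 0.57 ± 0.0904 (adjusted p = 0.0105) for each doubling. That fit leaves 1 residual degree of freedom among samples, and the 3 days are single libraries.

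The inhibitors and their ligand can be set against each other within each library. The ratio of summed Lefty1 and Lefty2 to Nodal, per length, was 6.30 in 2i and 4.55 in 2iJ. In 2iJ+B-A it had values of 0.451, 0.0974 and 0.00232 over days 2, 5 and 11. The ratio was 0.00874 in the sorted cells and 1.03 and 2.05 in the mesoderm progenitors on days 3 and 4. The balance of transcripts thus lay with the inhibitors in 2i and 2iJ and with the ligand on every day of 2iJ+B-A. Of 6 pluripotency markers, 5 had log2 fold changes between -0.62 and -0.10 against 2iJ and Klf4 had one of 1.04, none past the threshold (adjusted p between 0.259 and 0.944, edgeR). Summed trophectoderm and primitive endoderm markers were higher, the latter at between 17.0 and 176.8 CPM against between 6.25 and 13.2 CPM in 2i and 2iJ. The primitive endoderm sum was between 264.4 and 575.7 CPM in the mesoderm progenitors, so it does not set the lineages apart. It covers 5 genes and leaves out Dab2, whose symbol matched 2 identifiers. The part of these markers in the results was not tested.

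**Figure D3:**
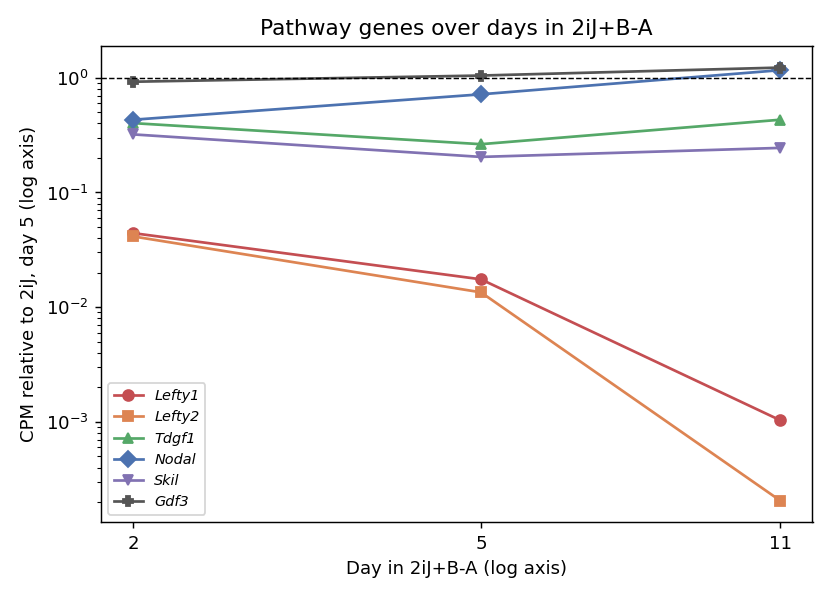
The level of 6 genes on days 2, 5 and 11 of 2iJ+B-A is plotted relative to the single 2iJ library of day 5, both axes on a log scale, 1 library a point. Lefty1 and Lefty2 run down to 0.00103 and 0.000206 of 2iJ, Tdgf1 and Skil lie between 0.204 and 0.431, and Nodal runs from 0.431 to 1.17.

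Of 38 other genes of the pathway, 35 passed the filter. None passed the test between 2iJ+B-A and 2iJ in the 6-library fit. At an unadjusted p under 0.05 there were 9, beside 1792 of all 16459 genes. The median log2 fold change was 0.184 against 0.025 for all genes. Among the feedback targets of SMAD signalling, all 3 had negative estimates, each at an unadjusted p under 0.05, with a median of -1.37. Skil, which encodes the SMAD repressor SnoN, was at 195.3 CPM in 2i and 222.8 CPM in 2iJ, and at 71.5, 45.5 and 54.6 CPM on days 2, 5 and 11. Its log2 fold change was -2.02 ± 0.273 (adjusted p = 0.0958, edgeR), and all 3 days lay below both references. Pmepa1, an inhibitor of SMAD signalling, had -1.37 ± 0.496 (adjusted p = 0.392), and Smad7, the inhibitory SMAD, -0.76 (adjusted p = 0.423). Among 6 developmental targets, 4 had negative and 2 positive estimates. Eomes, a T-box factor of the primitive streak, had -1.94 ± 0.396 (adjusted p = 0.195). The positive ones were Gsc, at 2.57 ± 0.675 (adjusted p = 0.273), and Foxa2, a forkhead factor of endoderm, at 4.61 ± 2.18 (adjusted p = 0.513), which was named after its values were seen and was at 0.448, 1.56 and 10.3 CPM over the 3 days against 0.156 CPM in 2iJ.

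The 4 other receptors and the 2 convertases that were tested all had positive estimates, with medians of 0.547 and 0.397. Pcsk6, which encodes a convertase that cleaves pro-Nodal, was at 100.6, 127.6 and 133.3 CPM in 2iJ+B-A against 82.4 CPM in 2i and 76.0 CPM in 2iJ, with a log2 fold change of 0.60 ± 0.217 (adjusted p = 0.397, edgeR). Bambi, a pseudoreceptor that dampens TGF-beta and BMP signals, had 1.27 ± 0.35 (adjusted p = 0.298). With 2i and 2iJ as 1 reference, 4 of the 35 genes passed beside 5.08% of all genes. Skil fell by 1.94 (adjusted p = 0.00934, edgeR) and Eomes fell by 2.24 (adjusted p = 0.0174), while Bambi rose by 1.33 (adjusted p = 0.027) and Gsc, a homeobox factor of the organizer that stayed under 2.3 CPM in these cultures, rose by 2.12 (adjusted p = 0.0468). Over the days, Fst, which encodes the Activin-binding protein follistatin, was at 1.59, 4.26 and 36.7 CPM on days 2, 5 and 11. In the 6-library fit of the slope, 4 of the 35 genes passed, all rising, beside 2.27% of all genes with a rising slope. Fst was 1 of them, at 1.85 (adjusted p = 0.0036, edgeR).

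**Figure D4:**
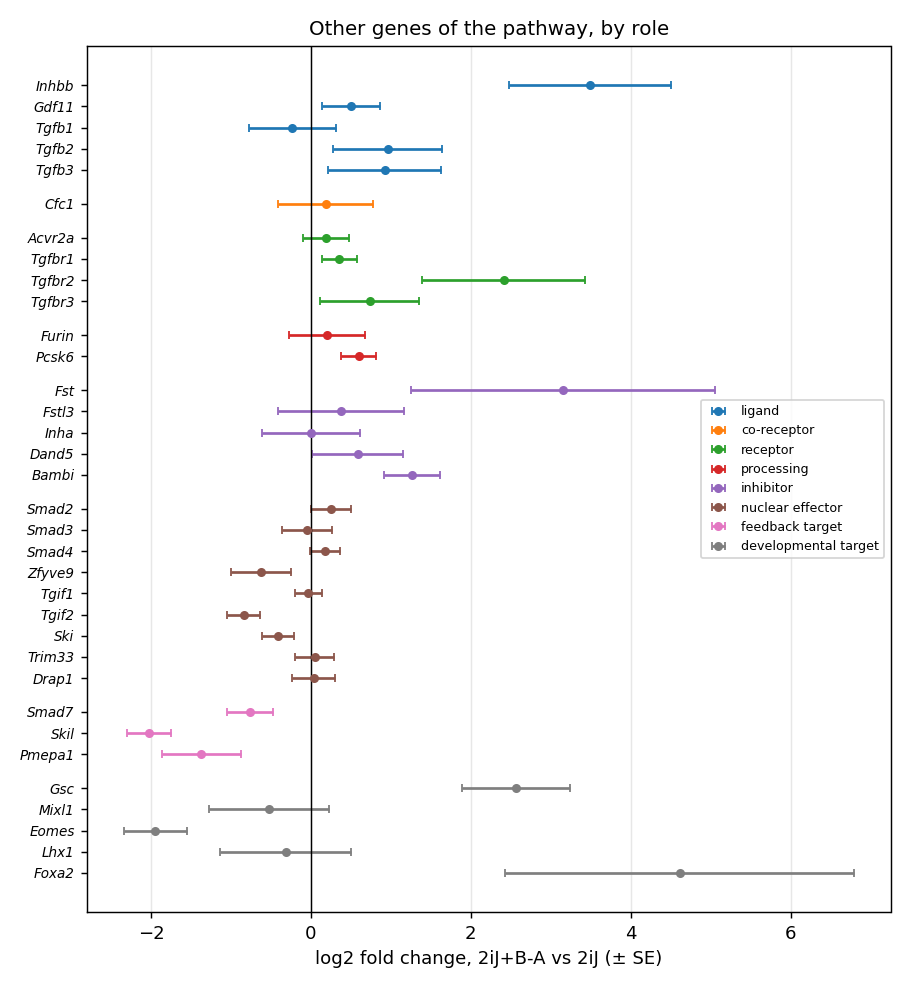
Log2 fold changes of 34 of the other pathway genes in 2iJ+B-A against 2iJ from edgeR are drawn with bars of 1 SE and coloured by role. The 3 feedback targets Smad7, Skil and Pmepa1 lie to the left of 0, the receptors and convertases to the right, and none passed an adjusted p of 0.05.

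The 2iJ and 2i libraries, which differ in the JAK inhibitor, were compared as values without a test. The ratio of 2iJ to 2i was 1.62 for Foxh1, 1.36 for Nodal and 1.34 for Lefty1, and 0.791 for Lefty2 and 0.793 for Tdgf1. The 2 Lefty genes therefore lay on opposite sides of 1 in this pair. Gdf3, Acvr1b and Acvr2b lay between 0.861 and 1.17.

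In cells sorted for Cdx2-GFP on day 2, 6 members were lower and 2 higher than in the unsorted R1 cells of the same day. Of 35 other pathway genes 16 were lower and 19 higher. The shares of all genes lower and higher in this pair of single libraries were not counted, so these counts do not set the members apart. Tdgf1 was at 20.1 CPM against 180.3 CPM, Nodal at 20.8 against 45.4 CPM, Gdf3 at 36.7 against 66.3 CPM and Foxh1 at 14.9 against 36.6 CPM. Lefty1 had 1 count and Lefty2 3 counts in the sorted cells, against 205 and 321 counts unsorted. Their ratios were 0.00604 (95% exact interval 0.000152 to 0.0340) and 0.0116 (0.00237 to 0.0341). Acvr1b was 1.80-fold higher, at 69.1 against 38.3 CPM, and Acvr2b 1.20-fold higher, at 15.8 against 13.2 CPM. The sorted cells were also of another line, so the sort and the line cannot be told apart. Fibroblast genes summed to 88.9 CPM in this library and to between 7.03 and 15.9 CPM in the others; their part in the difference was not tested.

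Against all 3 days of 2iJ+B-A in the 6-library fit, 3 of the 8 members were lower, beside 5.51% of all genes lower and 12.4% called in either direction. The sorted arm is 1 library with no spread of its own. In this fit only the 3 days of 2iJ+B-A give spread, so the sorted arm is assumed to vary as those days do. The comparison at day 2 below uses a fit with the time slope, which leaves 1 residual degree of freedom among samples. Tdgf1 had a log2 fold change of -2.98 ± 0.387 (adjusted p = 0.0118, edgeR), Foxh1 -1.21 ± 0.238 (adjusted p = 0.0301) and Gdf3 -1.003 ± 0.236 (adjusted p = 0.0456). Nodal had -1.91 ± 0.564 (adjusted p = 0.0777) and did not pass, nor did Lefty1 at -6.10 ± 2.95 (adjusted p = 0.209), nor Lefty2 at -5.15 ± 2.92 (adjusted p = 0.273), the members with the widest range over the days. Compared at day 2 on the time slope, 7 members passed beside 24.6% of genes, 6 of them lower beside 12.9% of genes and Acvr1b higher beside 11.7%. In the fit of all 8 libraries no member passed, beside 919 of 16961 genes. Adjusted p-values there were 0.177 for Tdgf1, 0.0872 for Foxh1 and 0.22 for Gdf3 (edgeR). Among the other pathway genes 4 of 35 passed, 2 lower and 2 higher, beside 6.84% of all genes higher. The type I receptor gene Tgfbr1 was lower at -1.65 (adjusted p = 0.0155, edgeR) and the signal transducer Smad2 lower at -1.45 (adjusted p = 0.0282), while Gdf11, a ligand gene, was higher at 1.86 (adjusted p = 0.0227) and Pcsk6 at 0.98 (adjusted p = 0.0322).

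In the mesoderm progenitors Gdf3 was low, with 2.10 CPM in the day 3 and 0.808 CPM in the day 4 library, against 76.5 ± 10.97 CPM in 2iJ+B-A (SD, n = 3). Foxh1 was at 144.0 and 245.5 CPM, against 35.8 CPM, and was the most abundant member per length on day 4. Acvr2b was at 20.5 and 27.0 CPM, against 11.5 ± 2.71 CPM. Neither day overlapped the 2iJ+B-A libraries for these 3 genes. The same held for Nodal, at 44.0 and 1.65 CPM against at least 45.4 CPM, and the share of all genes without overlap was not counted here. Gdf3, Foxh1 and Acvr2b were the members that passed, 1 lower and 2 higher, beside 27% of all 16961 genes (15.5% lower, 11.5% higher). The log2 fold change was -5.71 ± 0.463 for Gdf3 (adjusted p = 0.00163, edgeR), 2.46 ± 0.248 for Foxh1 (adjusted p = 0.00258) and 1.07 ± 0.305 for Acvr2b (adjusted p = 0.0452). The call of Acvr2b was lost without any one of the 3 libraries of 2iJ+B-A (adjusted p between 0.0682 and 0.115) or without mesoderm day 4 (0.139).

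Other members differed mostly between the 2 mesoderm libraries. Nodal had 44.0 CPM in the day 3 library but 1.65 CPM in the day 4 library, a ratio of 0.0374. Tdgf1 was at 368.3 and 40.2 CPM, and Lefty2 at 50.5 and 2.49 CPM, ratios of 0.109 and 0.0492. Lefty1 had 4.10 and 1.16 CPM. Per length, Lefty2 at 19.3 CPM per kilobase was above Lefty1 at 2.33 CPM per kilobase on day 3. In 2i these values were 153.2 and 80.3 CPM per kilobase, and in 2iJ 121.1 and 107.5. Acvr1b and Foxh1 went the other way, each about 1.7-fold higher on day 4. Pooled over the 2 days, Nodal (adjusted p = 0.279, edgeR) and Tdgf1 (adjusted p = 0.794) did not differ beyond this spread from 2iJ+B-A. Without day 3, Nodal had a log2 fold change of -5.54 (adjusted p = 0.00543) and Tdgf1 one of -1.96 (adjusted p = 0.0133), and without day 4 Tdgf1 was higher, at 1.21 (adjusted p = 0.0388). The call for Tdgf1 thus turned with the day. Nascent mesoderm markers, at 321.4 to 1035 CPM over the 2 libraries, differed between the days as well, and their part in these results was not tested.

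Of the 35 other pathway genes, 13 passed against 2iJ+B-A, 10 higher beside 11.5% of all genes and 3 lower beside 15.5%, with a median log2 fold change of 0.833 against -0.025 for all genes. Developmental targets were among the largest, with Lhx1 at 7.84 ± 1.09 (adjusted p = 0.0058, edgeR), Mixl1 at 7.58 ± 1.69 (adjusted p = 0.0219) and Eomes at 5.85 ± 1.09 (adjusted p = 0.0129). All 3 encode transcription factors of the primitive streak and its derivatives and were highest on day 3, with Eomes at 392.5 CPM against 22.2 CPM on day 4. Cfc1, which encodes Cryptic, the other co-receptor of Nodal, showed the opposite order, with 4.23 CPM in the day 3 and 142.1 CPM in the day 4 library, and a log2 fold change of 4.13 ± 1.21 (adjusted p = 0.0487). The type II receptor gene Acvr2a was higher by 1.39 ± 0.201 (adjusted p = 0.00634), and Skil by 0.83 ± 0.233 (adjusted p = 0.0422). Tgfb1, Zfyve9, Smad4 and Tgif2 also passed, higher by 3.37, 1.33, 0.86 and 0.81 (adjusted p between 0.00391 and 0.0243, edgeR). Pcsk6 was lower, at 6.65 and 2.26 CPM, with -4.75 ± 0.496 (adjusted p = 0.00279). The other lower genes were Inhbb and Fstl3, a ligand subunit and a follistatin-like inhibitor that did not exceed 11 CPM in any library.

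Across the 8 libraries, each member was compared with 9455 genes of at least 10 CPM on average, as Pearson's r of log2 CPM, given as a description only since the libraries share groups. Lefty1 was most like Nhsl1 (r = 0.972), Acsl1 (0.971) and Lefty2 (0.959), and Lefty1 in turn was the gene most like Lefty2. The closest gene was Rrp9 for Nodal (0.987), Phf17 for Gdf3 (0.999) and D19Bwg1357e for Tdgf1 (0.995). For Acvr1b it was Ik (0.984), for Acvr2b Bmp7 (0.992) and for Foxh1 Snn (0.992). Between Nodal and Lefty1, r was 0.36.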

How the data were processed

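Strand-specific poly-A RNA-seq of 8 libraries was used. Per the submitters' notes the authors trimmed reads with cutadapt and aligned read pairs to NCBIM37 with STAR 2.4.2a. They deposited raw STAR gene counts, unstranded and per strand, of which the reverse-strand column was used. The annotation release is not given in the sources used here. The batch adjustment of the study was not in these counts, and all 8 libraries carry 1 batch mark.

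Symbols and 1-based coordinates came from GENCODE vM1, which named 37205 of 37620 genes. CPM values were scaled to the library's total in that column, with 95% Wilson intervals, and ratios of 2 libraries carry exact intervals; both cover counting error only, since no molecular identifiers were used. CPM per kilobase used the union of exons. Genes that reached 10 counts in 2 or more libraries were tested with edgeR 4.0.16 (R 4.3.3; TMM, quasi-likelihood test, Benjamini-Hochberg adjustment, threshold 0.05). The 2iJ+B-A against 2iJ and sorted against 2iJ+B-A comparisons used the 6 mESC libraries (2 residual degrees of freedom). The mesoderm comparison (3) and the slope on log2 day (2) used all 8. Alternatives were DESeq2 1.42.0, other scaling, filters, strand, libraries and reference. The scripts were tested on simulated data.

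Days of a group served as its samples, the labels do not say that they are separate cultures, and p-values measure only the spread between these libraries. The members and gene lists were chosen with earlier results of these data known. Pathway genes were named from those with an adjusted p under 0.05 and from the 2 of each role with the largest change at 10 CPM or more. Not all of these genes are named. Correlations used a prior count of 2. The values of 1 pathway gene are not reported here.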

Additional observations from a re-analysis of the deposited data

How the results depend on the processing

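No paired analysis was possible because the labels carry no replicate numbers, and the days were not shared between all groups. Of 360 refitted log2 fold changes of single members, 295 kept their direction and their side of the threshold, 41 newly passed, 11 no longer passed and 13 changed sign. For 2iJ+B-A against 2iJ, no member passed. With DESeq2 1 passed (Tdgf1), without a filter on low counts 3, and with 2i and 2iJ as 1 reference 3. Leaving out a 2iJ+B-A library gave between 0 and 2, the 2 being Lefty1 and Lefty2 without day 2 or without day 11. With the joint reference it gave between 1 and 3, beside between 132 and 2553 of all genes. The fits that left out a library with the joint reference were added after the data were seen. For the slope on log2 day, where none passed, DESeq2 gave 1 (Lefty1), beside 115 of 16961 genes. The 6 mESC libraries gave 3, beside 531 of 16459 genes. Leaving out a 2iJ+B-A library gave 0, with 0 of all genes called. The members called on the slope changed with 1 mesoderm library left out. Against mesoderm progenitors, 3 passed, beside 4584 of all 16961 genes. With 1 library of 2iJ+B-A left out, 2 passed, beside between 2019 and 3329 of all genes tested. The members called also changed with 1 mesoderm library left out, which leaves that group without spread of its own. In every comparison the number of all genes called changed between refits too, so a count of members alone does not set them apart from other genes. For the sorted cells, 3 passed, beside 2033 of 16459 genes. With a library left out, between 1 (without day 5, beside 624 of 16113 genes) and 5 (without day 11, beside 2176 of 16148) passed. With all 8 libraries in the fit 0 passed, beside 919 of 16961 genes. At day 2 on the slope 7 passed, beside 4048 of 16459 genes.

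Sign changes of log2 fold changes were as follows. In 2iJ+B-A against 2iJ, Gdf3 went to -0.042 with the joint reference and ranged from -0.16 to 0.099 with a library left out (-0.093 without day 11; -0.0084 without day 5 and -0.16 without day 11 with the joint reference). Nodal ranged from -0.88 to 0.024, the last with the joint reference without day 2. On the slope, Foxh1 ranged from -0.090 to 0.013 (without day 2), Acvr1b from -0.025 (without day 2) to 0.21 and Tdgf1 from -0.52 (without day 11) to 0.65. Against mesoderm progenitors, Lefty1 ranged from -1.68 to 0.61 (without 2iJ+B-A day 2; 0.11 without mesoderm day 4), Acvr1b from -0.066 (without mesoderm day 4) to 0.73, and without mesoderm day 3 Lefty2 and Tdgf1 were at -1.14 and -1.96, in ranges that ended at 3.63 and 1.21. With 1 mesoderm library left, only the 3 days of 2iJ+B-A give spread, and that library is assumed to vary as they do. Of these, the Tdgf1 value without mesoderm day 3 passed the threshold (adjusted p = 0.0133, edgeR). The cause was not tested. The count of all genes called in 2iJ+B-A against 2iJ was 0 in edgeR, 537 with DESeq2, 179 without a filter, 416 without day 2, 144 without day 11 and 836 with the joint reference. Depth limits Cer1 in all libraries, and Lefty1 and Lefty2 in the sorted cells and on day 11.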
